A study of Homo sapiens with 14 samples.

Results

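The platelet-derived growth factor (PDGF) system consists here of 6 genes, the receptors PDGFRA and PDGFRB and the ligands PDGFA, PDGFB, PDGFC and PDGFD, out of 19794 protein-coding genes with a window. For each gene, every called peak that overlapped the gene body or the 20 kb on either side of it was collected from 14 peak lists, which gave 183 of the 351202 peaks in all lists. The lists came from CUT&Tag, in which a transposase tethered to an antibody cuts out the DNA that carries a given protein or histone mark. The cells were wild-type LX-2, a human line derived from hepatic stellate cells and immortalised in culture, and had spent 2 days on either soft or stiff matrix with no other treatment named. The soft libraries carry 2K in their titles and the stiff histone libraries 40K, whereas the stiff p-JUN libraries carry TCP and the label "stiff matrix". The comparison of soft with stiff p-JUN libraries therefore rests on that label, and a plastic dish in place of a gel cannot be told apart from it. Phosphorylated JUN (p-JUN), H3K4me3 and H3K27me3 had 2 libraries per matrix, and H3K27ac had 1 merged list per matrix and so no replicate check. All libraries stem from a single cell line. The methods describe the sequencing experiments in general as having biological replicates, and p-values measure the spread between these libraries of the line.

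PDGFs are secreted dimers that bind and pair receptor tyrosine kinases. PDGFA and PDGFC act through PDGFRα, PDGFB binds both receptors, and PDGFD acts mainly through PDGFRβ. PDGFC and PDGFD carry a CUB domain that must be cleaved off before they can bind. In the liver, PDGFRβ is known as the main receptor through which PDGF drives the proliferation and migration of stellate cells, and PDGFB as the strongest mitogen of these cells. JUN is a subunit of the transcription factor AP-1, and its phosphorylation raises its activity. H3K4me3 marks promoters, H3K27ac marks active promoters and enhancers, and H3K27me3 is the mark of Polycomb repression. None of these marks is a measure of RNA or protein.

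The p-JUN lists held 48163 to 54168 peaks, the H3K4me3 lists 18096 to 18857, the H3K27ac lists 18238 on soft and 13322 on stiff, and the H3K27me3 lists 19843 and 9228 on soft against 7104 and 6974 on stiff. Peak numbers depend on how deeply a library was sequenced, and total read numbers were not given in the sources used here. Of the 8 stellate cell and myofibroblast markers, ACTA2, COL1A1 and TAGLN had H3K4me3 within 1 kb of a coding start site in all 4 libraries, HAND2 in 2 and COL3A1 in 1, while COL1A2, LRAT and DES had none. None of the 8 hepatocyte, leukocyte and endothelial markers found in the annotation had H3K4me3 there, and of the 3 cholangiocyte markers EPCAM and SOX9 did in all 4 libraries.

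The start sites of 5 of the 6 genes carried H3K4me3 in every library, whereas p-JUN and H3K27ac lay mostly away from them. Within 1 kb of a coding start site, H3K4me3 was called in all 4 libraries at PDGFRB, PDGFA, PDGFB, PDGFC and PDGFD, as at 62.8% of all coding genes, and in 1 library at PDGFRA. The upstream H3K4me3 peak of PDGFRA was called in all 4 libraries, but elsewhere it ended just beyond 1 kb, at -1.072 kb. p-JUN was called within 1 kb of a start site in all 4 libraries only at PDGFC (38.2% of coding genes), and H3K27ac in both lists at none of the 6 genes (21.3% of coding genes). Of the 34 p-JUN regions in the 6 windows, 2 lay within 1 kb of a start site, 1 in an exon, 16 in introns, 8 upstream and 7 downstream. This split considers only the starts of the PDGF genes themselves. The downstream region PDGFRB +43.00 kb lies at the start of a neighbour, CSF1R. The same split was not counted for p-JUN regions genome-wide. A region here is the stretch covered by overlapping peaks of the same mark from any library. Distances are given from the summit or centre of a region to the canonical start site, negative upstream and positive in the direction of transcription, on genome build hg19.

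**Figure D1:**
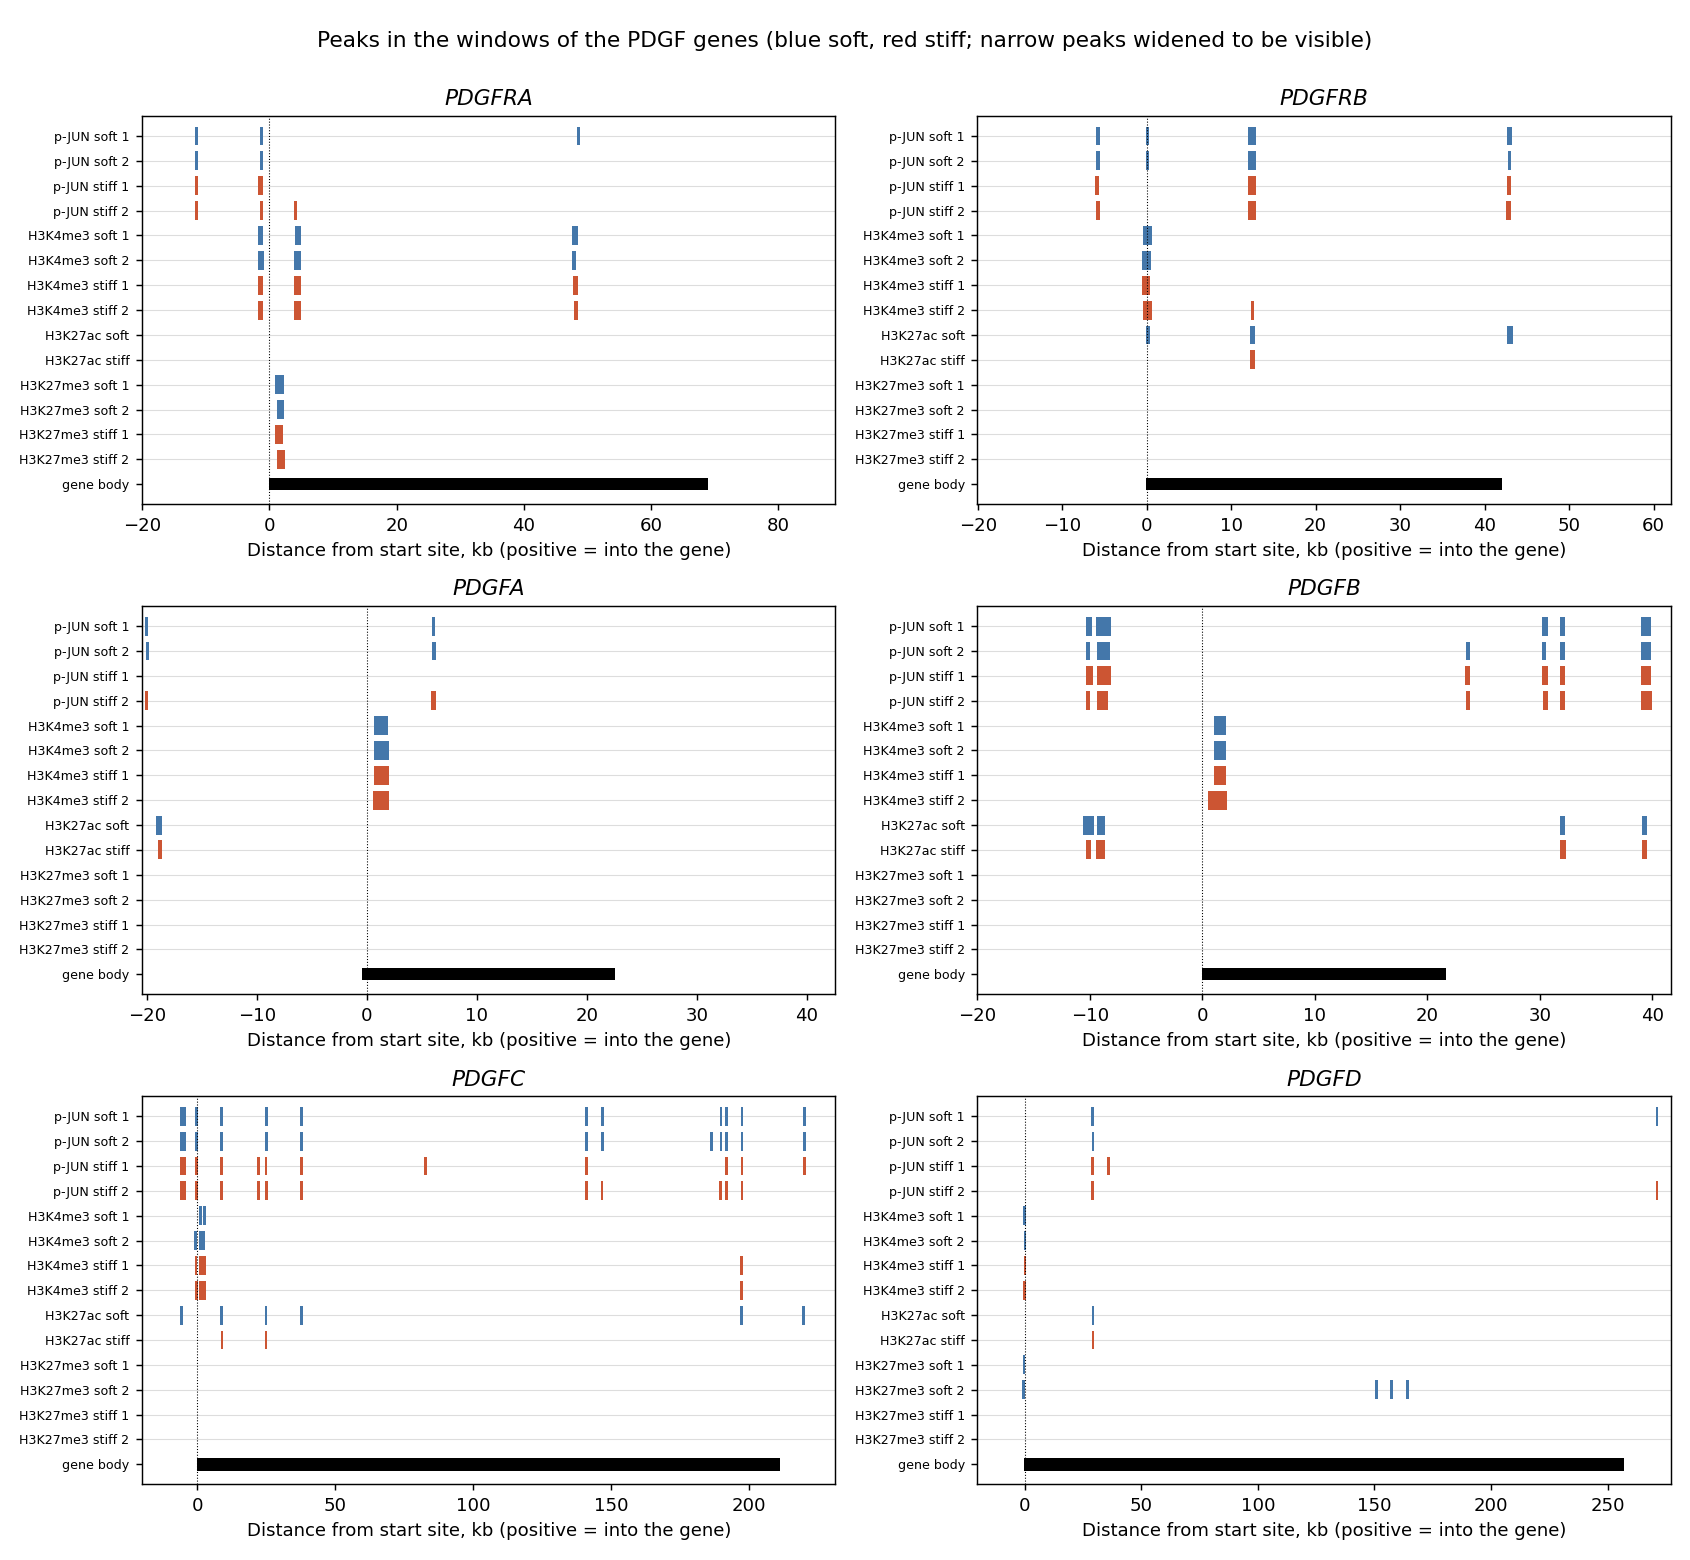
Peaks of the 14 lists in the window of each PDGF gene, plotted by distance in kb from the canonical start site (dotted line), 1 row per list, with soft lists in blue, stiff lists in red and the gene body as a black bar; peaks too narrow to see were drawn wider. p-JUN rows hold 12 to 13 peaks at PDGFC and 0 to 2 at PDGFA, and PDGFRA has no H3K27ac peak.

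The p-JUN sites printed here are the tallest non-exonic region of each gene by mean fold, which need not be the region with most fragments. They show whether and where an AP-1 element lies at these sites. Each stretch covers 50 bases on both sides of the summit, is written 5′ to 3′ on the plus strand of hg19, and has in capitals every AP-1 element TGACTCA or its reverse complement TGAGTCA. The PDGFRA site lies at chr4:55094161-55094261, upstream of the gene. The PDGFRB site at chr5:149522681-149522781, the PDGFA site at chr7:553415-553515, the PDGFC site at chr4:157855239-157855339 and the PDGFD site at chr11:104005654-104005754 are intronic, and the PDGFB site at chr22:39601477-39601577 lies downstream of the gene.
PDGFRA p-JUN -1.25 kb: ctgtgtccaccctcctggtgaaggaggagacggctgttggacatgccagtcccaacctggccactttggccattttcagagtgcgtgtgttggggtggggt
PDGFRB p-JUN +12.68 kb: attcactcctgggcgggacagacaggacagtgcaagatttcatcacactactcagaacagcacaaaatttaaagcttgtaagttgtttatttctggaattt
PDGFA p-JUN +6.02 kb: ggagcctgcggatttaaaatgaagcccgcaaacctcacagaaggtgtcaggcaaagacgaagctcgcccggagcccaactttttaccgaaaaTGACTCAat
PDGFB p-JUN +39.46 kb: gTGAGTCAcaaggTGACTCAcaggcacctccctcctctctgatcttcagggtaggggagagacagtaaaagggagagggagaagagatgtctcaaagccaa
PDGFC p-JUN +37.66 kb: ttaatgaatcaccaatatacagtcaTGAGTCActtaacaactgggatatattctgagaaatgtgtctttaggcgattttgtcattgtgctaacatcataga
PDGFD p-JUN +29.17 kb: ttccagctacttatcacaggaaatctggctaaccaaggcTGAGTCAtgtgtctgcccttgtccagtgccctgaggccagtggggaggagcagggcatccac

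The printed sites of the 4 ligands held an AP-1 element and those of the 2 receptors did not. Other p-JUN regions of both receptors did hold it, namely PDGFRB -5.72 kb, called in all 4 libraries, and PDGFRA +48.64 kb, called in soft replicate 1. By fragments at the summit, PDGFC +25.01 kb and PDGFA -20.02 kb stood above the printed sites of these genes, and neither held the element within 50 bases of its summit. Over all 34 p-JUN regions of the 6 genes, 11 held the element within 50 bases of the summit, beside 29.3% of all 61411 p-JUN regions of the genome. The CRE element TGACGTCA occurred in 0 of the 34 (0.681% of all p-JUN regions). The TEAD core CATTCC or GGAATG, searched like the others on both strands, occurred in 1 (9.22% of all). A match is only a run of letters, and its absence from this window says nothing about the factor.

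To explore how p-JUN differed between the matrices at these genes, the height of each region was compared as the deposited fold, which is the number of fragments at the summit over the local background of the same library. Of the 34 regions, 20 were called in all 4 libraries (65.8% of p-JUN regions genome-wide), 1 in both soft libraries alone (1.74%), 1 in both stiff libraries alone (2.75%), and the other 12 in varying sets of libraries. With limma on log2 fold, none of the 20 regions reached an adjusted p under 0.05, where 0% of the 40433 regions tested did. One of the 20 had an unadjusted p under 0.05, beside 9.48% of all regions. The log2 differences, stiff minus soft, ran from -0.22 to 0.27 with a median of -0.01, and the smallest adjusted p from limma was 0.506. The folds of the libraries did not overlap between the matrices in 9 of the 20 regions (37% of all), with both stiff values higher in 7 (24.9%) and both soft values higher in 2 (12.1%).

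**Figure D2:**
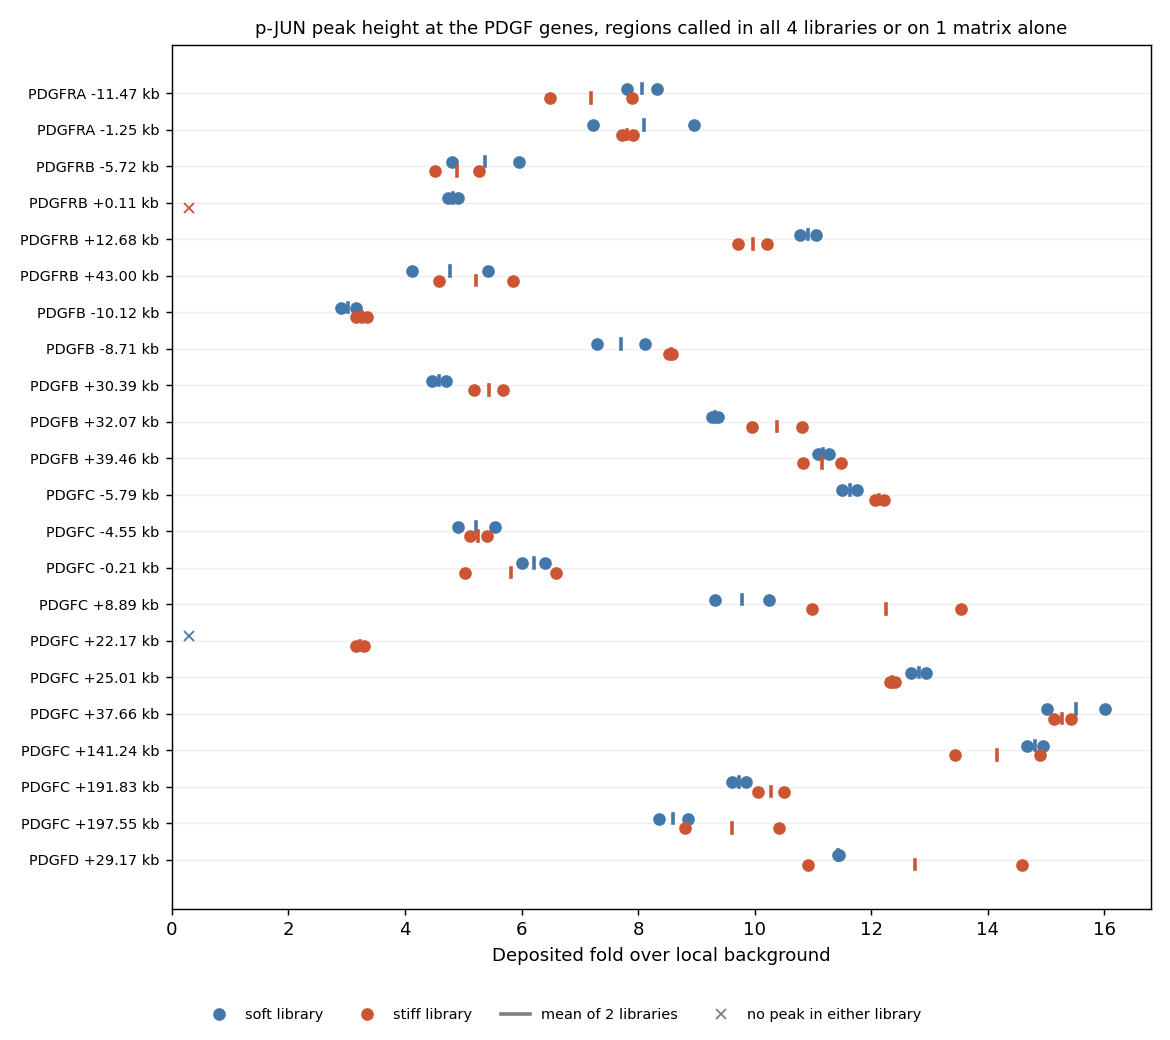
p-JUN peak height at the PDGF genes: each point is the deposited fold of 1 library (blue soft, red stiff), short bars are means of 2 libraries, and crosses mark a matrix with no peak in either library; regions called in other sets of libraries were left out. Points of both colours lie close together in most regions, from 2.90- to 3.34-fold at PDGFB -10.12 kb to 15.0- to 16.0-fold at PDGFC +37.66 kb.

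PDGFRB (chr5:149493402-149535435, minus strand), the receptor for PDGFB and PDGFD, had a single tall p-JUN site, inside an intron, and a weak one at its start site that was called on soft alone. The intronic region at +12.68 kb (chr5:149522413-149523366) had folds of 10.8 and 11.1 on soft and 10.2 and 9.72 on stiff. It was counted from 616 and 558 fragments at the summit on soft and from 511 and 512 on stiff. These values placed it within the top 1.12 to 2.42% of each library's peaks by q value. Both soft folds were above both stiff folds, but the difference of -0.18 ± 0.11 (SE, log2, stiff minus soft, n = 2 libraries per matrix) had an adjusted p of 0.669 in limma. The printed stretch of this site has no AP-1 element. H3K27ac at the site was listed on both matrices, with 67 fragments on soft and 78 on stiff. Their Poisson intervals (51.9 to 85.1 and 61.7 to 97.3) cover counting error only and overlapped.

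At the PDGFRB start site, the region at +0.11 kb (chr5:149535120-149535500) had p-JUN folds of 4.91 and 4.75 in the soft libraries, from 46 and 39 fragments, and no peak in either stiff library. Of all coding genes, 0.925% had start-site p-JUN peaks in soft libraries alone. Both soft peaks were modest, with a -log10 q of 16.9 and 13.9 against the lowest listed values of about 5, and 77.6% and 83.8% of the way down their lists. A missing peak means only that the signal did not pass the caller's threshold. H3K27ac at the same place (+0.01 kb) was likewise listed on soft, with 23 fragments (95% Poisson interval 14.6 to 34.5, counting error only), and not on stiff. H3K4me3 at the start site was present in all 4 libraries and ran the other way, with folds of 9.89 and 9.96 on stiff over 8.72 and 8.94 on soft. The H3K4me3 groups did not overlap, yet the difference after scaling was 0.09 ± 0.07 (SE, log2, n = 2 per matrix; limma adjusted p = 0.695). Fragments at the summit in place of folds gave -0.53 ± 0.125 (SE, log2; limma adjusted p = 0.115).

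The PDGFRB window had 4 and 4 p-JUN peaks on soft and 3 and 3 on stiff, and it was the only one of the 6 whose p-JUN numbers did not overlap between matrices, with soft higher. Of the 16537 coding windows with a p-JUN peak, 10.1% had numbers that did not overlap, soft being higher in 4.54% and stiff in 5.53%. The missing stiff peak was the one at the start site. When every list was cut to the length of the shortest by q value, the numbers became 3 and 4 on soft and 3 and 3 on stiff, so the groups then overlapped. The other regions, at -5.72 kb and at +43.00 kb, had folds between 4.12 and 5.96 and overlapping groups. The region at +43.00 kb lies at the start of the neighbouring CSF1R, the receptor of a macrophage growth factor, whose H3K27ac there was listed on soft with 24 fragments and not on stiff.

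PDGFRA (chr4:55095447-55164412, plus strand), the receptor for PDGFA and PDGFC, was the only one of the 6 genes with H3K27me3 at the start in every library and with no H3K27ac peak in either list. The H3K27me3 region (chr4:55096265-55097860) had folds of 2.82 and 2.72 on soft and 2.78 and 2.81 on stiff, and covered 1454 and 1053 bases on soft and 1328 and 1194 on stiff. The values of the matrices overlapped. H3K27me3 within 1 kb of a start site in all 4 libraries occurred at 2.43% of coding genes. H3K4me3 flanked this block without overlapping it. It lay upstream at -1.31 kb, with folds of 8.02 and 8.57 on soft and 9.72 and 8.72 on stiff, and downstream at +4.44 kb, with 6.68 and 6.80 on soft and 7.41 and 7.25 on stiff. Both stiff values were higher at both places, with scaled log2 differences of 0.08 ± 0.09 and 0.05 ± 0.07 (SE, n = 2 per matrix; limma adjusted p = 0.817 and 0.868). On fragments at the summit the first was -0.08.

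A further H3K4me3 region deep in PDGFRA, at +47.96 kb and touching an exon, had the largest standard error of the p-JUN and H3K4me3 regions tested at the 6 genes. Its folds were 7.70 and 12.3 on soft and 8.58 and 6.52 on stiff, so that the soft library with the highest value set the difference of -0.45 ± 0.23 (SE, log2; limma adjusted p = 0.562). Leaving out that library, soft replicate 2, changed the difference to -0.14, the smallest of the values without single libraries, and without soft replicate 1 it was -0.77. On fragments at the summit of all 4 libraries the difference was -1.04 ± 0.30 (SE, log2; limma adjusted p = 0.157). p-JUN regions called in every library at PDGFRA were both upstream of the gene. At -11.47 kb, the folds were 7.81 and 8.32 on soft and 6.49 and 7.89 on stiff, and at -1.25 kb, beside the upstream H3K4me3, 8.96 and 7.23 on soft and 7.90 and 7.73 on stiff. A p-JUN region at +4.0 kb was called in stiff replicate 2 alone and one at +48.64 kb in soft replicate 1 alone.

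PDGFC (chr4:157681606-157892951, minus strand), a ligand of PDGFRα that is activated by proteolysis, had the most p-JUN peaks of the 6 genes. Its window had 12 and 13 p-JUN peaks on soft and 12 and 12 on stiff, more than in 98.1% of coding windows. The window is long (251346 bases), and per 100 kb the 4.87 peaks exceeded those of 79.4% of coding windows. Of its 15 p-JUN regions, 11 were intronic and 9 were called in all 4 libraries.

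The tallest PDGFC site, at +37.66 kb (chr4:157854770-157855677), had folds of 15.0 and 16.0 on soft and 15.1 and 15.4 on stiff, from 431 to 488 fragments per library. The soft and stiff values overlapped, and the difference was -0.07 ± 0.10 (SE, log2; limma adjusted p = 0.898). The site at +25.01 kb had slightly lower folds of 12.9 and 12.7 on soft and 12.3 and 12.4 on stiff, but the most fragments, 841 and 751 on soft and 726 and 772 on stiff. By q value it ranked within the top 0.246 to 0.38% of every library. At +141.24 kb the stiff folds of 13.4 and 14.9 were close to the soft folds of 14.7 and 14.9.

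The intronic region of PDGFC at +8.89 kb had the largest p-JUN difference toward stiff among the 20 regions. Its folds were 10.2 and 9.31 on soft and 11.0 and 13.5 on stiff, with no overlap. The difference of 0.27 ± 0.11 (SE, log2, n = 2 per matrix) had an unadjusted p of 0.041 in limma and an adjusted p of 0.506 over all regions. H3K27ac was listed there on both matrices, with 15 fragments on soft (8.4 to 24.7, 95% Poisson interval) and 21 on stiff (13 to 32.1). These intervals overlap. At +22.17 kb (chr4:157870625-157871006) p-JUN was called in the stiff libraries alone, with folds of 3.16 and 3.30 from 164 and 180 fragments. That is a low fold on a high local background, close to the tall site at +25.01 kb.

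At the PDGFC start, the p-JUN region at -0.21 kb was present in every library, with soft folds of 6.01 and 6.40 and stiff folds of 5.03 and 6.60. The H3K4me3 region at +1.06 kb had 6.30 and 5.78 on soft and 5.58 and 6.27 on stiff. Both pairs of groups overlapped. The window held 2 and 2 H3K4me3 peaks on soft and 4 and 4 on stiff, the only one of the 6 whose H3K4me3 numbers did not overlap. This was so in 4.89% of the 15493 coding windows with a peak, with stiff higher in 2.57% and soft in 2.32%. Near the start, this difference partly reflected how the signal was split into peaks. The domain from about +0.6 to +3.0 kb was 1 peak in soft replicate 2 and a pair of peaks in the other libraries, and a low peak at -0.37 kb (folds 2.37 to 2.60) was missing from soft replicate 1.

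The remaining H3K4me3 region of PDGFC lies in an intron at +197.53 kb (chr4:157695293-157695847) and was called in both stiff libraries alone (1.77% of H3K4me3 regions). Its folds were 8.76 and 7.02 from 26 and 25 fragments. p-JUN covered the same place in every library, at 8.86 and 8.35 on soft and 8.81 and 10.4 on stiff. H3K27ac there went the opposite way, with 29 fragments on soft and no peak on stiff.

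**Figure D3:**
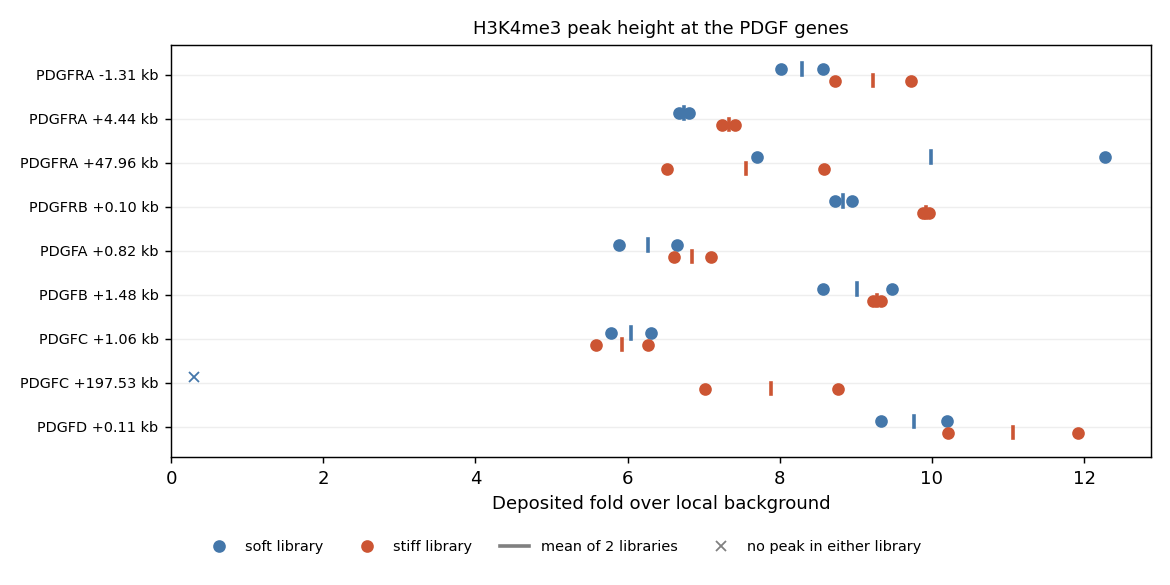
H3K4me3 peak height at the PDGF genes: each point is the deposited fold of 1 library (blue soft, red stiff), short bars are means of 2 libraries, and the cross marks the PDGFC region with no soft peak. The red points lie above the blue ones in 4 of the 8 regions called in all 4 libraries, and PDGFRA +47.96 kb spreads from 6.52 to 12.3.

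PDGFB (chr22:39619364-39640987, minus strand), the ligand of both receptors, had no p-JUN within its gene body, and its p-JUN sites lay on either side of it. The window held 5 and 6 p-JUN peaks on soft and 6 and 6 on stiff, 9.33 per 100 kb, which is more than in 97.2% of coding windows. It held 4 H3K27ac peaks on each matrix, more per 100 kb than in 98.7% of coding windows. The tallest site, at +39.46 kb (chr22:39601053-39601961), had folds of 11.1 and 11.3 on soft and 11.5 and 10.8 on stiff, from 368, 318, 332 and 310 fragments, and a pair of AP-1 elements at its summit stretch. The matrices overlapped, with a difference of -0.05 ± 0.11 (SE, log2; limma adjusted p = 0.94) that turned to 0.06 without stiff replicate 2.

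The other 4 PDGFB regions called in all p-JUN libraries each had both stiff folds above both soft folds. At +30.39 kb the folds were 4.46 and 4.71 on soft and 5.69 and 5.18 on stiff, and at +32.07 kb they were 9.27 and 9.38 on soft and 9.96 and 10.8 on stiff. Upstream, at -8.71 kb, they were 7.30 and 8.12 on soft and 8.53 and 8.58 on stiff, and at -10.12 kb the stiff folds of 3.34 and 3.17 were just above the soft folds of 3.16 and 2.90. Genome-wide, 24.9% of regions also had both stiff folds higher. The largest of the 4 differences, at +30.39 kb, was 0.20 ± 0.12 (SE, log2; limma adjusted p = 0.66). Fragments at the summit were also higher in both stiff libraries at +30.39 and +32.07 kb. They overlapped at -8.71 kb (292 and 272 on soft, 263 and 289 on stiff) and at -10.12 kb (124 and 95, 101 and 103).

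H3K27ac at the PDGFB flanks had more fragments on soft at 3 of its 4 sites, a share that was not counted genome-wide. At -8.85 kb there were 67 fragments at the summit on soft (51.9 to 85.1, 95% Poisson interval) and 34 on stiff (23.5 to 47.5), and at -10.06 kb 68 on soft (52.8 to 86.2) and 42 on stiff (30.3 to 56.8). The intervals were apart in the first pair and overlapped in the second. They cover counting error only, and the soft and stiff lists may differ in depth, so this is a comparison of 2 lists and not of the conditions. Downstream, 52 fragments on soft stood beside 37 on stiff at +32.07 kb, and 30 beside 31 at +39.45 kb. H3K4me3 at the PDGFB start had folds of 8.57 and 9.47 on soft and 9.23 and 9.33 on stiff, with overlap.

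PDGFA (chr7:536895-559933, minus strand), which signals through PDGFRα, and PDGFD (chr11:103777917-104035107, minus strand), a ligand of PDGFRβ, had the fewest p-JUN regions of the 6 genes, 2 and 3. Per 100 kb, the PDGFA window held 2.38 p-JUN peaks, more than in 49.4% of coding windows. The PDGFD window held 0.589, more than in 21.1%. In the PDGFA window there were 2 and 2 p-JUN peaks on soft and 0 and 2 on stiff. The intronic site at +6.02 kb had folds of 5.57 and 5.22 on soft, no peak in stiff replicate 1 and 5.79 in stiff replicate 2, and the site at -20.02 kb had 3.51 and 4.07 on soft and 3.06 in stiff replicate 2. Both sites thus missed the same library and could not be tested over all 4. H3K4me3 at the PDGFA start had soft folds of 6.65 and 5.88 and stiff folds of 6.60 and 7.09, with overlap. The single H3K27ac region, at -18.68 kb, had 50 fragments on soft and 42 on stiff.

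The intron of PDGFD held a p-JUN site with an AP-1 element at +29.17 kb, with folds of 11.4 and 11.4 on soft and 10.9 and 14.6 on stiff, from 45 to 68 fragments. H3K27ac was listed there on both matrices with 11 and 12 fragments. The p-JUN difference was 0.10 ± 0.12 (SE, log2; limma adjusted p = 0.867), and it turned to -0.05 without stiff replicate 2. H3K4me3 at the PDGFD start had folds of 9.33 and 10.2 on soft and 11.9 and 10.2 on stiff. At the same start, an H3K27me3 region at -0.28 kb was called in both soft libraries, with folds of 3.24 and 3.27, and in neither stiff library, as were 7.54% of H3K27me3 regions, while 0.484% were called in both stiff libraries alone. Soft replicate 2 had 3 more H3K27me3 regions in the gene, none of them in another library. In all, 577 and 1802 bases of the PDGFD window were covered on soft and 0 and 0 on stiff. Every soft library exceeded every stiff library in this way in 32.3% of the 6864 coding windows with H3K27me3, and the reverse held in 1.28%, 33.6% in all. The soft H3K27me3 lists were also the longer ones, and soft replicate 1 lost its PDGFD peak once lists were cut to equal length.

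**Figure D4:**
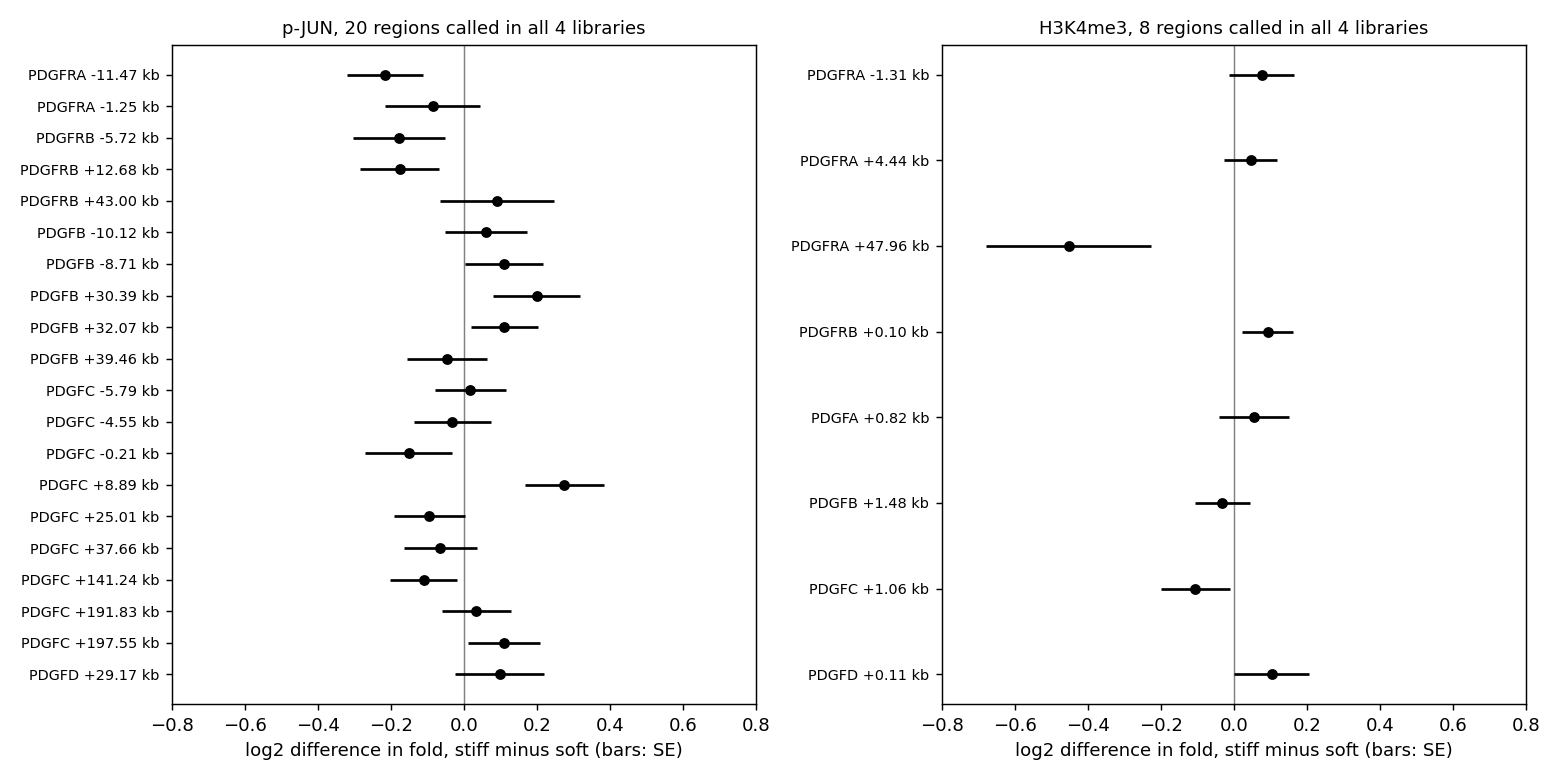
Scaled log2 difference in fold, stiff minus soft, for the PDGF regions called in all 4 libraries of p-JUN (left) and H3K4me3 (right), with the standard error from limma as bars. The 20 p-JUN values lie between -0.22 and 0.27 and the 8 H3K4me3 values between -0.45 and 0.10, and no adjusted p was under 0.05.

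For H3K4me3 as a whole, 11 regions lay in the 6 windows, 8 of them in all 4 libraries (78.9% of all H3K4me3 regions), 1 on stiff alone and 0 on soft alone (1.25% of all). With limma, 0 of the 8 had an adjusted p under 0.05 (0% of 16098 regions), 0 had an unadjusted p under 0.05 (10.2% of all), and the smallest adjusted p was 0.562. The unscaled folds did not overlap between the matrices in 4 of the 8 (48.8% of all). Both stiff libraries were higher in these 4 (39.7% of all) and both soft libraries in 0 (9.11%). Without scaling, the median of all H3K4me3 regions was 0.07 higher on stiff on the log2 scale. A fit on fragments at the summit, which called 10 H3K4me3 regions genome-wide, called none of the 8.

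H3K27ac was listed in 15 regions of the 6 windows, 15 on soft and 9 on stiff. Of the 15 regions, 9 were in both lists (54.1% of all), 6 on soft alone (35% of all H3K27ac regions) and 0 on stiff alone (10.9%). The 6 soft-alone regions belonged to PDGFRB, where they were the start site and the CSF1R start, and to PDGFC, at -5.86, +37.78, +197.19 and +219.91 kb, with 13 to 29 fragments. When the soft list was cut to the length of the stiff list by q value, 11 soft peaks stood beside the 9 stiff peaks. Of the 20 p-JUN regions called in all libraries, 12 overlapped soft H3K27ac, or 60% beside 35.9% of such regions genome-wide, and 8 overlapped stiff H3K27ac, or 40% beside 27.5%. Only 4 of the 20 overlapped H3K4me3, 20% beside 25%.

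**Figure D5:**
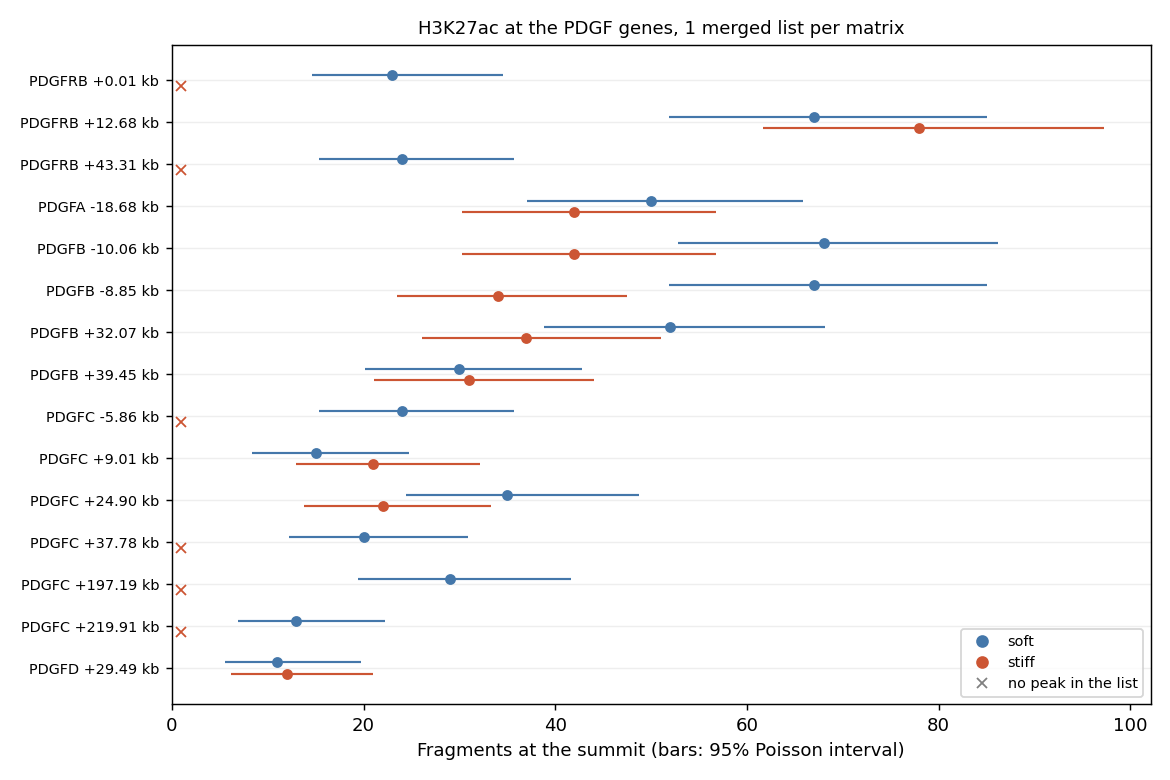
H3K27ac fragments at the summit of the 15 regions of the PDGF genes in the soft (blue) and stiff (red) merged list, with 95% Poisson intervals that cover counting error only; crosses mark regions with no peak in that list. The intervals are apart only at PDGFB -8.85 kb, a share not counted genome-wide, and 6 regions are listed on soft alone (35% of all).

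No region of the wider pathway passed the test either. It was read from 33 genes in 4 groups, namely ligand processing and co-receptors, adaptors and effectors, related receptors and related ligands. H3K4me3 lay at the start sites of 30 of the 33 in every library, beside 62.8% of all coding genes. It was called in no library for ST14, a membrane protease, or for the receptors CSF1R and FLT3 (34.5% of coding genes). Start-site p-JUN was called in every library in 18 (38.2% of coding genes), in no library in 8 (46.7%) and in some in 7. Of these 7, CRK, an adaptor, had it on soft alone (0.925% of coding genes). Their windows held 175 p-JUN regions, of which 111 were tested. In limma 0 of these had an adjusted p under 0.05 (smallest 0.381; 0% of all p-JUN regions) and 12 an unadjusted p under 0.05 (9.48% of all). Of 64 H3K4me3 regions tested 0 had an adjusted p under 0.05 (smallest 0.342; 0% of all H3K4me3 regions) and 9 an unadjusted p under 0.05 (10.2% of all). Some of these regions lie in the PDGFRB window as well, since CSF1R is its neighbour.

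Among the pathway windows, p-JUN peak numbers were higher in both stiff libraries than in both soft libraries for PLAT, tissue plasminogen activator, and FLT1, a VEGF receptor, where 5.53% of coding windows with a p-JUN peak had stiff higher, so that the share among the 33 genes was near this background. Start-site H3K27ac was listed on soft alone in 6 genes. These were the proteases FURIN and PLAU, the adaptors GAB1 and NCK1, the regulatory PI3-kinase subunit PIK3R1, and CSF1R. It was listed on stiff alone in none, where 10.7% of coding genes had it on soft alone and 2.58% on stiff alone.

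The genes whose peak numbers across the 14 lists followed those of a PDGF gene most closely were found by Pearson's r of log2(peaks + 1), as a description over lists that share cells and antibodies. They were LRRFIP2 (r = 0.995) and DCBLD2 (0.994) for PDGFRB, ALG3 and VWA5B2 (both 0.982) for PDGFRA, TASOR (1.0) and C17orf80 (0.97) for PDGFA, LIMS3 and LIMS4 (0.999 each) for PDGFB, SUPT7L (0.999) and ATXN7L1 (0.995) for PDGFC, and ZNF484 (0.897) and BLCAP (0.85) for PDGFD. ALG3 and VWA5B2 are neighbours that share their peaks, and LIMS3 and LIMS4 are near-identical copies between which reads cannot be assigned with certainty.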

How the data were processed

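CUT&Tag was done by the authors on LX-2 cells. The notes name Trim Galore, Bowtie2 and Picard on hg19, while the methods name MACS2, with a relaxed q-value threshold, for ATAC-seq only. The lists have the column layout of MACS2, but the caller of the CUT&Tag peaks, its options and its control are not given in the sources used here. The labels and the methods give different cell numbers per assay. The 14 deposited peak lists hold a score, the fold, which is a ratio to the local background, and -log10 p and -log10 q values. Fragments at the summit were recovered from the deposited fold and -log10 p values (tolerance 0.0001) for 99.9% or more of p-JUN, H3K4me3 and H3K27ac peaks.

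Peaks on 24 chromosomes were assigned by at least 1 base to gene bodies of GENCODE release 44 on GRCh37 (hg19) with 20 kb on each side. Peaks of a mark that overlapped between libraries were merged into regions, and the highest peak of a library stood for it. The log2 fold, centred on each library's median, was compared by limma 3.58.1 in R 4.3.3 over all regions called in 4 libraries, with Benjamini-Hochberg adjustment. limma was tested on simulated data. Peak numbers and covered bases were not tested, since 2 against 2 libraries cannot go below an exact permutation p of 0.333. Python 3.11.15 was used for the rest. Named regions were those within 1 kb of a coding start site, on 1 matrix alone, or highest by mean fold, and further regions were named after their values were seen. The genes and lists were chosen with earlier results of these data known. PECAM1, 1 of 20 marker genes, was not matched in the annotation. Alternatives were other windows, thresholds, scalings, a replicate block and leaving out each library. The comparison of p-JUN peak numbers in pathway windows is given in part, and the rest of it is not reported here.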

Additional observations from a re-analysis of the deposited data

How the results depend on the processing

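The count of PDGF regions past an adjusted p of 0.05 stayed at 0 for p-JUN and for H3K4me3 under quantile normalization, no scaling, fragments at the summit, regions called in at least 3 libraries, a replicate block and without each library (0 to 0). Deviations of same-numbered libraries were hardly correlated (0.005 for p-JUN and -0.05 for H3K4me3). With 2 libraries per matrix this is a single value per mark and cannot tell whether such libraries were prepared together. The block left 0 calls of both marks genome-wide. The log2 ratio of stiff to soft peak number was -0.08 for p-JUN, -0.08 with the replicate block and -0.16 to 0 without single libraries. For H3K4me3 it was 0.35, with 0.18 for windows of 50 kb on each side, 0.44 for lists of equal length, 0.44 for a -log10 q of at least 10, 0.35 with the block and 0.29 to 0.41 without single libraries. For H3K27me3 covered bases it was -0.95, with -1.48 for 50 kb on each side and -0.77 for lists of equal length. It was -0.94 with the block and -1.18 to -0.69 without single libraries. For H3K27ac it was -0.74, and -0.81 to -0.29 under the alternatives. With 20 kb on each side, the H3K27me3 shift came from PDGFD alone (577 and 1802 bases on soft, 0 and 0 on stiff). PDGFRA had means of 1253.5 bases on soft and 1261 on stiff, and the other genes had none. H3K4me3 numbers differed only at PDGFC (2 and 2 on soft, 4 and 4 on stiff) and PDGFRB (1 and 1, 1 and 2). The cause of these shifts was not tested. The direction of small differences reversed at some regions. With fragments at the summit, the log2 difference was -0.25 at PDGFD p-JUN +29.17 kb, -0.0835 at PDGFRA H3K4me3 -1.31 kb, 0.0445 at PDGFC H3K4me3 +1.06 kb, -0.53 at PDGFRB H3K4me3 +0.10 kb and -0.40 at PDGFD H3K4me3 +0.11 kb. Without scaling it was 0.0435 at PDGFB H3K4me3 +1.48 kb. Without single libraries it reversed at PDGFD p-JUN +29.17 kb (-0.0475 to 0.24), PDGFB p-JUN +39.46 kb (-0.15 to 0.0608), PDGFRA p-JUN -1.25 kb (-0.24 to 0.0638), PDGFB H3K4me3 +1.48 kb (-0.0805 to 0.0168), PDGFRA H3K4me3 -1.31 kb (-0.0175 to 0.17), PDGFA H3K4me3 +0.82 kb (-0.0581 to 0.17) and PDGFD H3K4me3 +0.11 kb (-0.024 to 0.23). With 2 libraries per matrix and 11 to 78 H3K27ac fragments per peak, small differences were not detectable here.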
